A study of Mus musculus with 12 samples.

Results

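The genes described here are the measured ligands, receptors, co-receptors, secreted inhibitors and intracellular regulators of Wnt signalling. They were taken by name: every gene with a probe set annotated to a single symbol in which Wnt, Fzd, Dkk, Sfrp, Rspo or Lgr is followed by a digit, and Axin1, Axin2, Lef1, Tcf7, Tcf7l1, Tcf7l2, Lrp5, Lrp6, Nkd1, Nkd2, Rnf43, Znrf3 and Wif1. The rule gave 57 of the 18193 genes with such a probe set, read by 114 probe sets. They were 19 ligands, 12 receptors and co-receptors, 9 secreted inhibitors, 9 genes of the R-spondin axis, 7 intracellular regulators and Fzd10os, a transcript annotated on the opposite strand of Fzd10 that the letters of the rule take in. Tcf7 was not analysed here, since no single-symbol probe set for it was found.

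RNA from mouse kidney was measured on 12 one-colour 3' expression arrays in 6 groups of 2. The groups were whole cortex tissue, whole medulla tissue, renal progenitor cells derived from cortex or from medulla and cultured on a fibroblast feeder layer, and organoids derived from cortex or from medulla and differentiated in 3D Matrigel, a basement membrane gel. The 2 arrays of each group are labelled as biological replicates, and it is not given whether the same replicate number marks the same animal or culture. Strain, age, genotype and passage number were not given in the sources used here, nor whether a progenitor culture was grown from 1 clone or freed of feeder cells before lysis.

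Wnt proteins are secreted, lipid-modified ligands that bind Frizzled receptors together with the co-receptors Lrp5 or Lrp6. In the canonical branch this stops the destruction complex, built on Axin, from degrading beta-catenin, which then acts in the nucleus with the Tcf/Lef factors. Dickkopf proteins block the co-receptors, Sfrp proteins and Wif1 bind the ligands, and R-spondins acting through Lgr4, Lgr5 and Lgr6 hold off the ubiquitin ligases Rnf43 and Znrf3 that remove Frizzled from the cell surface. In the developing kidney, Wnt9b and Wnt11 from the ureteric bud and Wnt4 in the nephron mesenchyme are known for their roles in branching and tubule formation, and Wnt7b for the layout of the medulla.

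Promoter sequences are shown for 3 ligands that rose together in the progenitor cells, Wnt7a, Wnt9a and Wnt4, and for 2 members whose stretch held letters read by Tcf/Lef factors, Wnt11 and Fzd7. They are from RefSeq, mouse build GRCm38.p6, 5' to 3' in the direction of the gene, in lower case with the Tcf/Lef letters in capitals, and end where the gene's first annotated transcript begins. The stretches are chr6:91411354-91411603 (minus strand) for Wnt7a, chr11:59306680-59306848 (plus) for Wnt9a, chr4:137277385-137277634 (plus) for Wnt4, chr7:98834862-98835083 (plus) for Wnt11 and chr1:59481897-59482146 (plus) for Fzd7.
Wnt7a: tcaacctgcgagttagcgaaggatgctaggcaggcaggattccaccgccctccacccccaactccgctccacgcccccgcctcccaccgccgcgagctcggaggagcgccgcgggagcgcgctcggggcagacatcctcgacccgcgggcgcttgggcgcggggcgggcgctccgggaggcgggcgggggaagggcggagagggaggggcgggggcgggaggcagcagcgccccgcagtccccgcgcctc
Wnt9a: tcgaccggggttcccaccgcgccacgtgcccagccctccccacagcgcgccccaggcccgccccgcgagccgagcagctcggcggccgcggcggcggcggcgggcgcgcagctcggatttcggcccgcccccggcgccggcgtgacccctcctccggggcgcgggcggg
Wnt4: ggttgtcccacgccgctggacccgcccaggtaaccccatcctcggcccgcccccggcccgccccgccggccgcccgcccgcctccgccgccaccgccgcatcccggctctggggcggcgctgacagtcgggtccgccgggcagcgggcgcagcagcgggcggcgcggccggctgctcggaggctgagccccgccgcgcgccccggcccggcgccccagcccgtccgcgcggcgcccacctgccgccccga
Wnt11: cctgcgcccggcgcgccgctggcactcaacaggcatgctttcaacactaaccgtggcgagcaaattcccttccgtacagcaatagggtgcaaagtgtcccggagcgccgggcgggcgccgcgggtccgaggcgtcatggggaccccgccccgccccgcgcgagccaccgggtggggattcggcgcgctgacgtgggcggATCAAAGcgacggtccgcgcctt
Fzd7: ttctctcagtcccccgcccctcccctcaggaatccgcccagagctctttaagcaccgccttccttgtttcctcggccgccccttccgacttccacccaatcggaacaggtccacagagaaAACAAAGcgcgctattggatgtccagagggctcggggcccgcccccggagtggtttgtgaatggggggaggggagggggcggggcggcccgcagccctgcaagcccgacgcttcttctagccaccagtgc

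The letters searched were CTTTG followed by a pair of bases that are each A or T, on both strands within the 250 bases before an annotated start, and no other motif was compared. Some genes have several starts, and the stretch shown stops at the first of them so that no transcribed base is printed. The letters were present in 14.8% of the 32851 promoters of that length. RefSeq promoters were matched for 37 members, of which 6 held at least 1 match (16.2%, against 16.8% of all genes with a promoter). In Fzd7 the match began at position -130 from the start, and in Wnt11 at position -51 from a later start, both on the opposite strand. Over the 250 bases before the start counted, G and C made up 77.6% in Wnt7a, 84.4% in Wnt9a and 85.2% in Wnt4, and the median was 66.4% over the members' promoters against 52.4% over all promoters. Other ligands ranged from 48.4% in Wnt8b to 87.6% in Wnt3a, and Wnt6, which did not rise, had 79.6%. No promoter was matched for Wnt7b or Wnt10a. A match of letters describes the sequence only.

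Values below are log2 of the deposited MAS5 signal plus an offset, the 25th percentile of all signals. On this scale the lowest possible value is 3.92, and the array medians lay between 6.19 and 6.75. Only genes brighter than the median of the array in both replicates of some group were tested, which left 13037. Of the 57 members, 39 were tested and 18 were not. A tested gene had to be bright somewhere, so counts over the tested members are descriptions and not evidence about the family. Differences are given with the standard error of the limma fit over all 12 arrays, as the mean of the cortex and the medulla difference with 4 arrays on each side, and a change means an adjusted p under 0.05. Since one probe set is not comparable in brightness with another, levels are compared only within a gene. Where 4 values are listed for a stage, the 2 cortex arrays come first and the 2 medulla arrays follow.

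The 18 untested members were the ligands Wnt1, Wnt2, Wnt2b, Wnt3, Wnt3a, Wnt8a, Wnt8b, Wnt9b and Wnt10b, the receptor Fzd9, the inhibitors Dkk1, Dkk4 and Sfrp5, the R-spondins Rspo1, Rspo2, Rspo3 and Rspo4, and the intracellular inhibitor Nkd1. Their values lay between 3.95 and 7.29 over the 12 arrays. The 4 R-spondins stayed between 3.95 and 6.32 in every group. Wnt9b, the ureteric bud ligand, read 5.12 and 4.87 in cortex tissue and 7.28 and 6.38 in medulla tissue, and at most 6.24 on the other 8 arrays. On this probe set its medulla tissue arrays were the highest of the 12. A second Wnt9b probe set read 5.275 and 4.565 in cortex tissue and 4.805 and 5.486 in medulla tissue. On the other 8 arrays it read 4.623 to 5.306, so the split of Wnt9b by region rests on 1 probe set. Detection calls were not used here, so none of these genes is described as absent.

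The labels were read against fixed marker lists, as mean log2(signal + offset) per array. Proximal tubule markers averaged 13.42 to 14.08 in tissue, 5.40 to 5.74 in progenitor cells and 6.33 to 6.62 in organoids, and collecting duct markers 10.40 to 11.12, 6.38 to 6.95 and 6.84 to 7.69. Simple epithelial markers averaged 9.89 to 10.92 in tissue, 13.57 to 13.78 in progenitor cells and 11.90 to 12.08 in organoids. Endothelial markers averaged 9.17 to 10.03 in tissue, 5.26 to 5.80 in progenitor cells and 4.74 to 5.20 in organoids. All 12 were lower in progenitor cells than in tissue, a step over which 35.9% of all genes fell. Loop of Henle markers averaged 13.01 to 13.48 in tissue, 5.35 to 5.80 in progenitor cells and 7.89 to 8.61 in organoids. Podocyte markers went from 9.12 to 9.97 in tissue to 6.11 to 6.85 and 5.85 to 5.98 in the cultured stages, and leukocyte markers from 7.81 to 8.13 to 5.59 to 5.95 and 5.88 to 6.32. Several means join opposite moves. From progenitor cells to organoids 4 of 6 loop of Henle markers rose and 2 fell, and 2 of 8 proximal tubule markers rose and 3 fell. Of 11 collecting duct markers 5 rose and 1 fell, and of 7 tested leukocyte markers 3 rose and 1 fell. Over that step 28.1% of all genes rose and 44.3% fell. The 18 measured fibroblast and mesenchyme markers averaged 7.55 to 8.15 in tissue, 8.70 to 9.11 in progenitor cells, 6.24 and 6.62 in cortex organoids and 8.42 and 8.17 in medulla organoids. Their part, and that of the feeder cells, in the values below was not tested, and in whole RNA fewer cells of a type and less RNA per cell cannot be told apart.

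The arrays also differed technically between stages. The poly-A control RNAs added to the samples had median log2 signals of 7.69 to 8.24 on tissue arrays, 7.01 to 7.16 on progenitor arrays and 1.16 to 2.30 on organoid arrays. For Gapdh, the control set at the 3' end exceeded that at the 5' end by 0.87 to 1.67 (log2) on organoid arrays, against -0.23 to 0.18 on tissue arrays and -0.40 to -0.30 on progenitor arrays. For beta-actin the order was another, with 0.94 to 1.63 on tissue arrays, 0.16 to 0.19 on progenitor arrays and -0.0 to 0.15 on organoid arrays. Stage and these differences cannot be told apart. The medulla organoid replicates differed most: 11 of the 39 tested members differed by over 1 between them, against 1 to 3 in the other groups. The widest gap was in Lgr5 (3.02), and Dkk2 differed by 2.64 and Sfrp2 by 2.40.

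Between tissue and progenitor cells, 7 of the 10 tested ligands rose and 2 fell, and the 6 tested of the 9 secreted inhibitors fell. Of the 39 tested members 27 changed, 10 up and 17 down, in a comparison in which 72.7% of all genes tested changed, 36.8% up and 35.9% down. The list median was -0.52 against 0.03 over all genes. Leaving out each array in turn, 23 of the 27 calls held every time. From progenitor cells to organoids 26 changed, 11 up and 15 down (72.3% of all genes, 28.1% up and 44.3% down, list median -0.01 against -0.29), and 23 held under every omission. Organoids differed from tissue in 31 members, 12 up and 19 down (79.7% of all genes, 33% up and 46.6% down, list median -0.65 against -0.29), and 27 held. Taken within cortex and within medulla samples, the share of all genes that changed was 62.7% and 62% from tissue to progenitor cells, 61.8% and 62.3% from there to organoids, and 71.9% and 70.4% between tissue and organoids. The shares of members called lie near those over all genes, so the counts say nothing particular about the family, and since the 3 comparisons share arrays they are set side by side only.

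**Figure D1:**
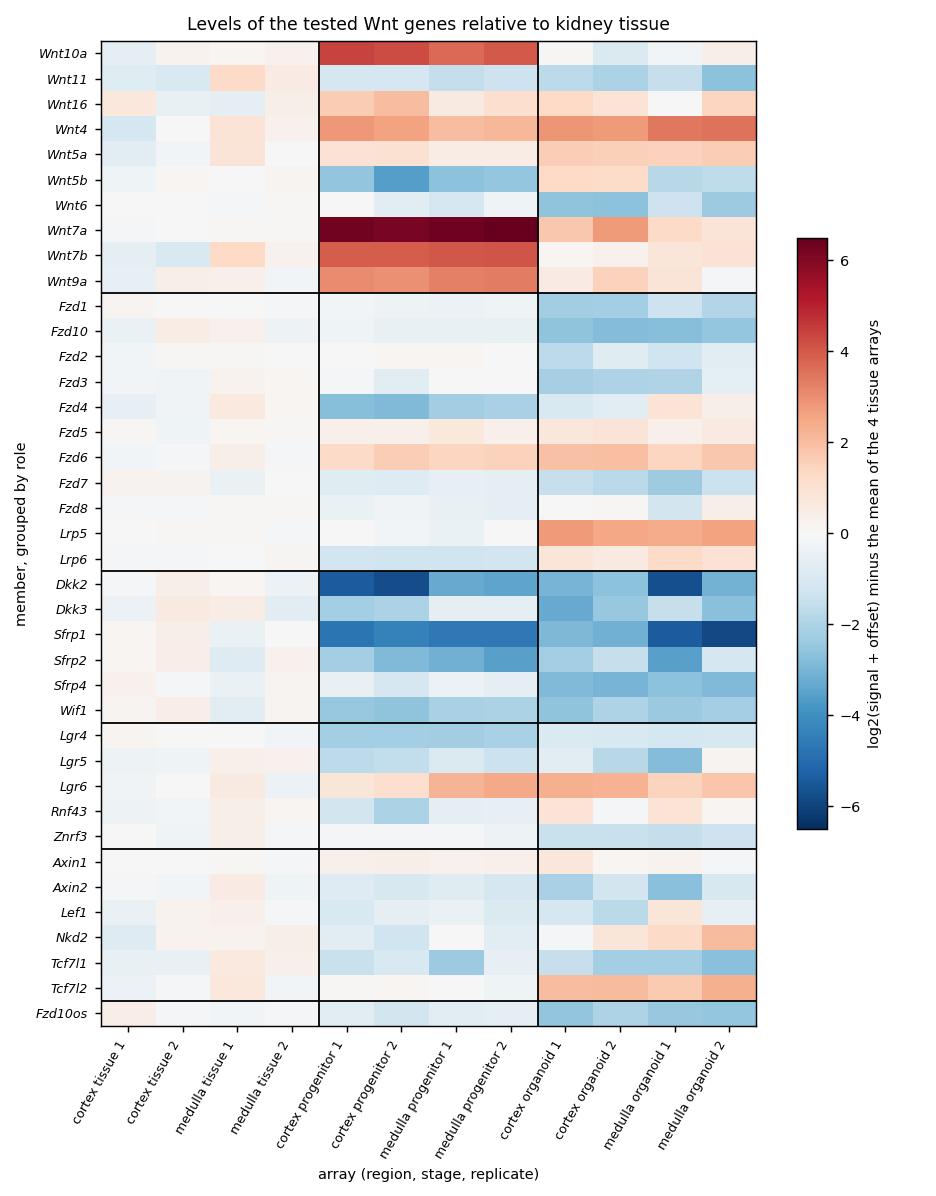
Each row is 1 of the 39 tested members, grouped by role, and each column 1 of the 12 arrays. Colour is log2(signal + offset) minus the mean of the 4 tissue arrays. Wnt7a, Wnt7b, Wnt10a and Wnt9a are highest in the 4 progenitor columns, and Sfrp1 and Dkk2 are below tissue in the progenitor and organoid columns.

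Of the 19 ligands 9 were not tested. Of the 10 tested, 7 rose from tissue to progenitor cells, Wnt5b and Wnt11 fell, and Wnt6 did not pass (-0.52 ± 0.29, adjusted p = 0.129), where 36.8% of all genes rose and 35.9% fell. On the probe sets counted, Wnt7a, Wnt10a and Wnt16 passed the brightness filter only through progenitor cells, which favours a rise, so the count is a description only. Wnt7a read 4.26 and 4.42 in cortex tissue, 4.46 and 4.49 in medulla tissue, 10.67 and 10.59 in cortex-derived progenitor cells, 10.75 and 10.87 in medulla-derived ones, 6.18 and 7.18 in cortex-derived organoids and 5.66 and 5.25 in medulla-derived ones. Every progenitor array stood above every tissue and organoid array, and the rise over tissue was 6.31 ± 0.24 (limma adjusted p = 3.2e-10). As tissue lies close to the lowest possible value, this size depends on the offset. Wnt7a, a ligand known from limb and reproductive tract patterning, then fell by 4.66 ± 0.24 in organoids (adjusted p = 9.5e-09). Its rise rests on 1 probe set. Another probe set of Wnt7a that passed the brightness filter read 6.59 to 7.06 in tissue and 6.08 to 6.89 in progenitor cells, a difference of -0.40 ± 0.29 (adjusted p = 0.23 over all probe sets), and fell by 2.01 ± 0.29 in organoids. Against tissue, organoids were 1.66 ± 0.24 higher on the first probe set and at -2.41 ± 0.29 on the other.

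Wnt7b read 7.38 and 6.97 in cortex tissue, 9.28 and 8.26 in medulla tissue, 11.92 and 11.88 in cortex-derived progenitor cells, 11.98 and 12.07 in medulla-derived ones, 8.08 and 8.24 in cortex-derived organoids and 8.77 and 8.91 in medulla-derived ones. Wnt7b, a ligand made in the collecting duct system, was higher on every progenitor array than on any other array, by 3.99 ± 0.19 over tissue (15.9-fold on this scale, limma adjusted p = 2.37e-09), and it fell by 3.46 ± 0.19 in organoids. Its other probe set rose by 4.28 ± 0.21 and then fell by 1.37 ± 0.21. For Wnt10a, tissue stood at 5.34, 6.24, 6.13 and 6.30, progenitor cells at 10.39, 10.24, 9.68 and 10.01, and organoids at 6.08, 5.04, 5.81 and 6.41. Wnt10a, which acts in skin appendages and teeth, rose by 4.08 ± 0.29 (16.9-fold) and fell by 4.25 ± 0.29, so that organoids and tissue overlapped (difference -0.17 ± 0.29, adjusted p = 0.6).

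Wnt9a gave 5.41, 6.32, 6.24 and 5.75 in the tissue arrays, 9.01, 8.88, 9.22 and 9.26 in the progenitor arrays, and 6.47, 7.42, 6.75 and 5.87 in the organoid arrays. Wnt9a, a ligand known from joint formation, rose by 3.16 ± 0.30 in progenitor cells (limma adjusted p = 1.19e-06) and fell by 2.46 ± 0.30 in organoids. A second probe set moved the same way, 1.40 ± 0.27 up and 1.03 ± 0.27 down. Wnt7b and Wnt9a passed in organoids against tissue with 0.53 ± 0.19 and 0.70 ± 0.30, but their arrays overlapped between these stages. The Wnt9a call was lost when any of 8 arrays was left out, with values of 0.46 to 0.70 and adjusted p of 0.0659 to 0.196, among them both progenitor replicates of each region, cortex tissue 1, medulla tissue 2, cortex organoid 2 and medulla organoid 1. For Wnt7b, it was lost without cortex tissue 2 (0.43), medulla tissue 2 (0.28) or cortex organoid 2 (0.49). The other Wnt7b probe set also passed as higher in organoids, with 5.47 to 6.65 in tissue and 8.79 to 9.01 in organoids and no overlap. How far Wnt7b returns towards tissue thus depends on the probe set. That of Wnt9a had the same sign and did not pass.

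Wnt4 and Wnt5a were higher in both cultured stages than in tissue. Wnt4 read 5.44 and 6.53 in cortex tissue, 7.44 and 6.86 in medulla tissue, 9.37 and 9.19 in cortex-derived progenitor cells, 8.57 and 8.73 in medulla-derived ones, 9.43 and 9.31 in cortex-derived organoids and 10.01 and 10.12 in medulla-derived ones. Wnt4, which drives the mesenchyme-to-epithelium step of nephron formation, rose by 2.40 ± 0.23 in progenitor cells (limma adjusted p = 1.31e-06) and was 3.15 ± 0.23 above tissue in organoids (8.88-fold). The further rise from progenitor cells to organoids, 0.75 ± 0.23, was 1.41 ± 0.33 in medulla-derived samples and 0.09 ± 0.33 in cortex-derived ones (adjusted p = 0.827). A second bright Wnt4 probe set read 7.586 and 7.433 in cortex-derived progenitor cells and 9.755 and 9.159 in cortex-derived organoids. In medulla-derived samples it read 6.975 and 6.544, then 9.961 and 9.353. Whether Wnt4 rises further in cortex-derived organoids thus depends on the probe set. The tissue arrays of Wnt5a read 8.11, 8.59, 9.60 and 8.82, the progenitor arrays 9.72, 9.79, 9.28 and 9.26, and the organoid arrays 10.37, 10.33, 10.27 and 10.37. Wnt5a, a ligand of the non-canonical branch, was 1.55 ± 0.17 higher in organoids than in tissue, and every organoid array exceeded every other array. Its rise in progenitor cells was 0.73 ± 0.17, with 1.40 ± 0.24 among cortex samples and 0.06 ± 0.24 among medulla samples (adjusted p = 0.845).

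Wnt5b read 7.56 and 7.92 in cortex tissue, 7.77 and 8.02 in medulla tissue, 5.28 and 4.25 in cortex-derived progenitor cells, 5.14 and 5.30 in medulla-derived ones, 9.14 and 9.01 in cortex-derived organoids and 6.04 and 6.18 in medulla-derived ones. Wnt5b, the closest relative of Wnt5a, fell by 2.83 ± 0.25 in progenitor cells (7.09-fold lower, limma adjusted p = 6.38e-07) and rose by 2.60 ± 0.25 in organoids. The return was unequal. Cortex organoids ended 1.33 ± 0.35 above their tissue and medulla organoids 1.79 ± 0.35 below theirs, so that the mean difference from tissue was -0.23 ± 0.25. A second Wnt5b probe set fell by 2.76 ± 0.30 and rose by 1.67 ± 0.30, but read 5.93 to 6.44 on the 4 organoid arrays with no split by region.

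For Wnt11, tissue stood at 6.56, 6.33, 8.60 and 7.88, progenitor cells at 6.24, 6.26, 5.78 and 5.97, and organoids at 5.62, 5.30, 5.82 and 4.68. Wnt11, the ligand of the ureteric bud tip whose promoter is shown above, was highest on the 2 medulla tissue arrays. It fell by 1.28 ± 0.29 in progenitor cells, with -2.37 ± 0.40 among medulla samples and -0.19 ± 0.40 among cortex samples (limma adjusted p = 0.695). Its further fall of 0.71 ± 0.29 in organoids was lost on leaving out any of 9 arrays, all but medulla tissue 1 and 2 and medulla organoid 1, with values of -0.79 to -0.42 and adjusted p of 0.0542 to 0.138. Wnt6, a ligand expressed by epithelia, read 7.05 to 7.23 in tissue, 6.03 to 7.11 in progenitor cells and 4.46 to 5.80 in organoids. Organoids were below both other stages on every array, by 1.73 ± 0.29 from progenitor cells. Wnt16 rose by 1.34 ± 0.39 in progenitor cells, where 3 of 4 arrays were above every tissue array.

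**Figure D2:**
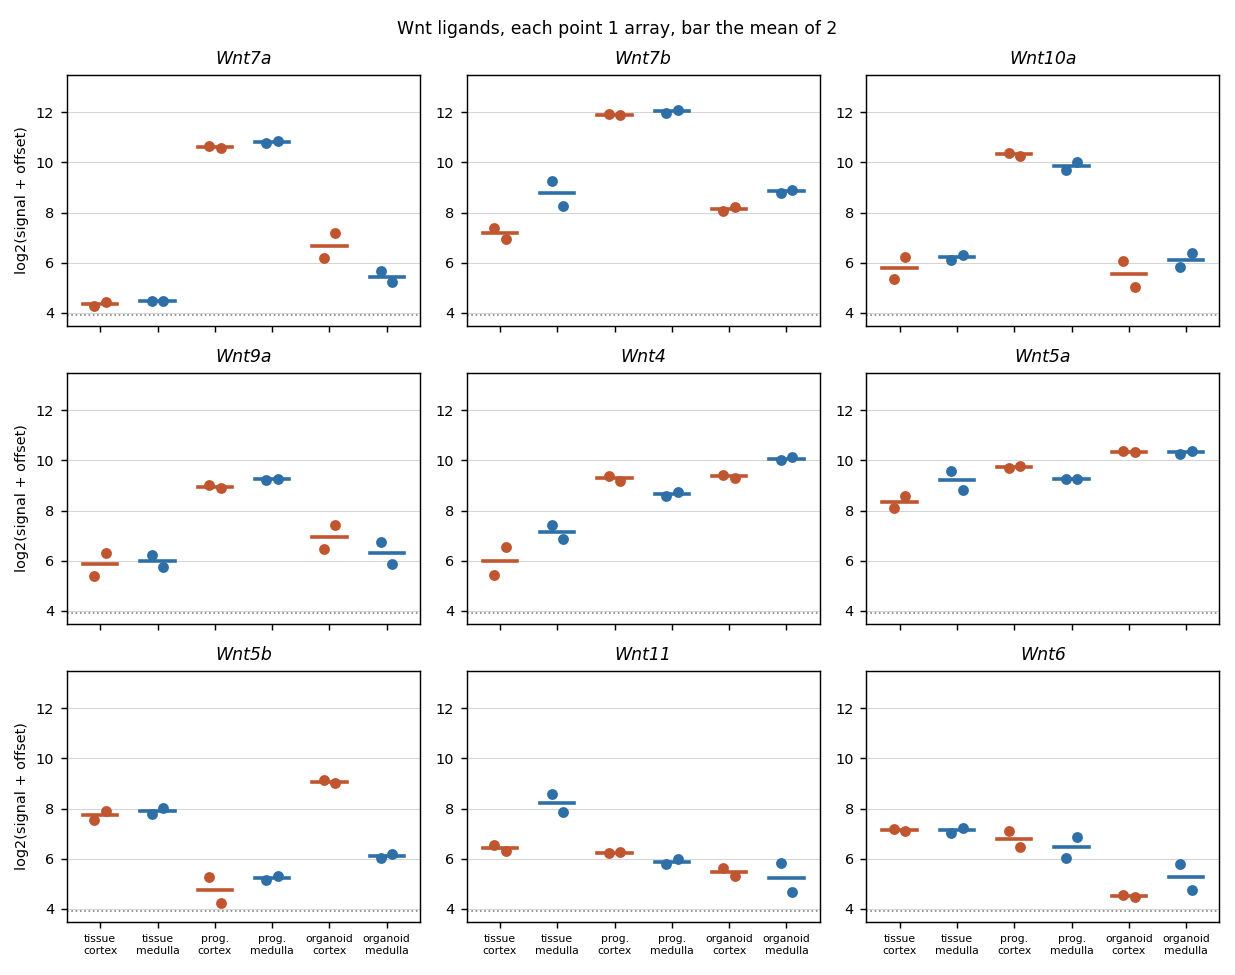
Panels of ligands, with each point 1 array and each bar the mean of the 2 arrays of a group, in log2(signal + offset), cortex in orange and medulla in blue (prog. is progenitor cells). The dotted line is the lowest possible value. Wnt7a, Wnt7b, Wnt10a and Wnt9a peak in progenitor cells, Wnt4 and Wnt5a stay high in organoids, and Wnt5b splits between cortex and medulla organoids.

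Of the 6 inhibitors tested (9 members), 6 fell from tissue to progenitor cells and 6 were lower in organoids than in tissue, where 35.9% and 46.6% of all genes fell. Sfrp2 and Wif1 passed the brightness filter only through tissue, which favours a fall, so these counts are descriptions only. Sfrp1 read 11.39 and 11.66 in cortex tissue, 10.82 and 11.25 in medulla tissue, 6.53 and 6.87 in cortex-derived progenitor cells, 6.63 and 6.65 in medulla-derived ones, 8.38 and 8.15 in cortex-derived organoids and 5.86 and 5.40 in medulla-derived ones. Sfrp1, which binds Wnt ligands, fell by 4.61 ± 0.18 in progenitor cells (24.4-fold, limma adjusted p = 4.31e-10). All 4 other bright Sfrp1 probe sets fell too, by 2.42 to 4.12. The mean change from progenitor cells to organoids was 0.28 ± 0.18 (adjusted p = 0.188), and it joined opposite moves: a rise of 1.57 ± 0.26 in cortex-derived samples (adjusted p = 0.000242) and a fall of 1.01 ± 0.26 in medulla-derived ones (adjusted p = 0.00489).

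Dkk2 gave 9.62, 10.17, 9.88 and 9.41 in the tissue arrays, 4.35, 4.01, 6.48 and 6.34 in the progenitor arrays, and 6.73, 7.08, 4.06 and 6.70 in the organoid arrays. Dkk2, a Dickkopf protein that binds the co-receptors, fell by 4.47 ± 0.45 in progenitor cells (limma adjusted p = 1.86e-06), and no cultured array reached the tissue range. As the cortex-derived progenitor arrays lie close to the lowest possible value, the size of the fall depends on the offset. Cortex-derived samples fell by 5.72 ± 0.63 and medulla-derived ones by 3.23 ± 0.63. Between progenitor cells and organoids the difference was 0.85 ± 0.45 (adjusted p = 0.107), and without medulla organoid 1, the lowest of the organoid arrays, it was 1.51 with adjusted p = 5.75e-05.

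The tissue arrays of Sfrp2 read 7.74, 8.04, 6.80 and 7.88, the progenitor arrays 5.42, 4.74, 4.51 and 4.08, and the organoid arrays 5.42, 6.14, 4.08 and 6.49. Sfrp2 fell by 2.93 ± 0.47 in progenitor cells (limma adjusted p = 0.000112) and stayed 2.08 ± 0.47 below tissue in organoids. For Wif1, tissue stood at 6.73, 6.99, 5.81 and 6.75, progenitor cells at 4.09, 3.96, 4.48 and 4.52, and organoids at 3.95, 4.57, 4.15 and 4.34. Wif1, which sequesters Wnt proteins, fell by 2.31 ± 0.27 and stood at 3.95 to 4.57 in organoids, close to the lowest possible value. The size of such falls depends on the offset.

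Dkk3 gave 7.67, 8.60, 8.50 and 7.35 in the tissue arrays, 5.84, 5.96, 7.43 and 7.37 in the progenitor arrays, and 4.75, 5.56, 6.53 and 5.33 in the organoid arrays. Dkk3, a divergent member of its family, fell by 1.38 ± 0.36 in progenitor cells, with -2.24 ± 0.50 in cortex samples and -0.52 ± 0.50 in medulla samples (limma adjusted p = 0.388). It was 2.49 ± 0.36 below tissue in organoids. Its fall from progenitor cells to organoids, 1.11 ± 0.36, was -0.91 without cortex organoid 1 (adjusted p = 0.0651). Its other bright probe set did not pass between tissue and progenitor cells (-0.42 ± 0.35, adjusted p = 0.298), and fell by 1.79 ± 0.35 from there to organoids, to 2.21 ± 0.35 below tissue. Sfrp4 read 6.73 to 7.45 in tissue, 6.06 to 6.77 in progenitor cells and 4.15 to 4.50 in organoids. The step into organoids was -2.19 ± 0.25 with no overlap, whereas the earlier fall of 0.65 ± 0.25 was lost without cortex tissue 1, medulla tissue 2, cortex progenitor 2, or either medulla progenitor array (-0.71 to -0.49, adjusted p of 0.0506 to 0.134).

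**Figure D3:**
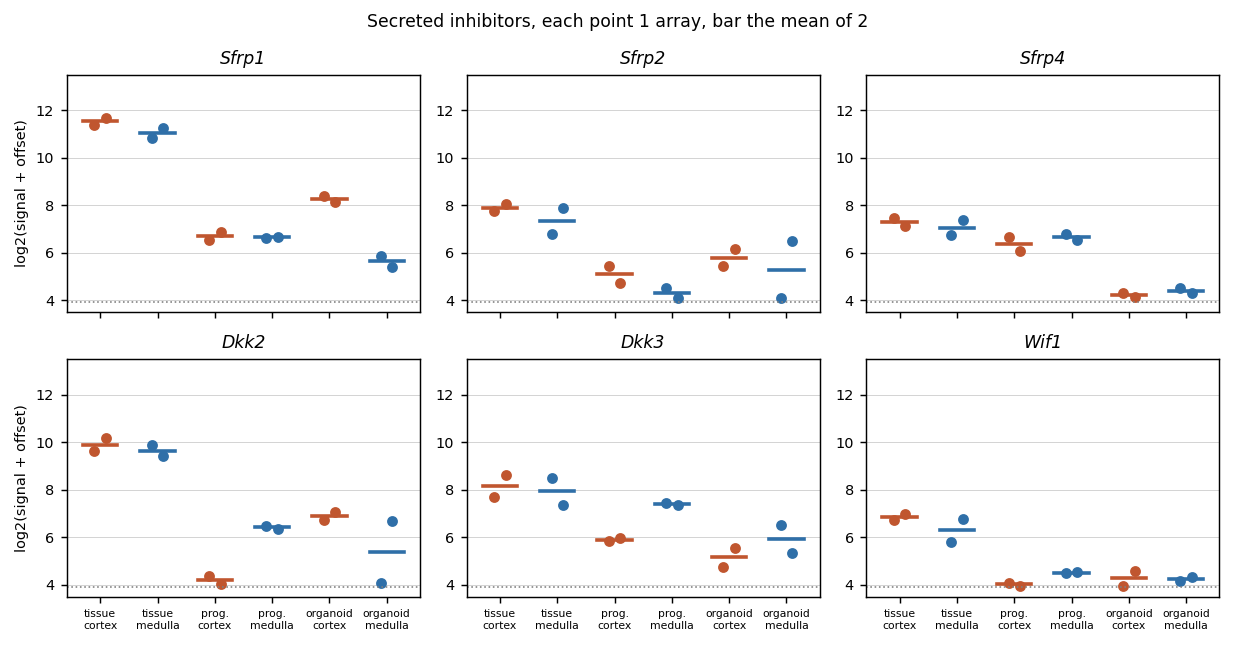
Secreted inhibitors by group, each point 1 array and each bar the mean of 2, in log2(signal + offset). All cultured arrays of Sfrp1, Dkk2, Sfrp2 and Wif1 lie below the tissue arrays, and Sfrp1 is at 8.38 and 8.15 in cortex organoids against 5.86 and 5.40 in medulla organoids.

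The co-receptors Lrp5 and Lrp6 rose in organoids, and the Frizzled receptors split. Lrp5 read 7.11 and 7.24 in cortex tissue, 7.22 and 7.02 in medulla tissue, 7.10 and 6.97 in cortex-derived progenitor cells, 6.71 and 7.18 in medulla-derived ones, 9.90 and 9.67 in cortex-derived organoids and 9.57 and 9.78 in medulla-derived ones. Tissue and progenitor arrays of Lrp5 overlapped (-0.16 ± 0.18, adjusted p = 0.436), and every organoid array was above both, by 2.74 ± 0.18 over progenitor cells (6.68-fold, limma adjusted p = 5.76e-08). The tissue arrays of Lrp6 read 11.10, 11.05, 11.14 and 11.33, the progenitor arrays 9.91, 9.84, 9.86 and 9.90, and the organoid arrays 11.94, 11.73, 12.41 and 12.12. Lrp6 fell by 1.28 ± 0.10 in progenitor cells and rose by 2.17 ± 0.10 in organoids (adjusted p = 3.37e-09), ending 0.89 ± 0.10 above tissue. Its second probe set moved by -0.55 ± 0.17 and 1.20 ± 0.17.

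Fzd4 read 9.85 and 10.18 in cortex tissue, 11.05 and 10.50 in medulla tissue, 7.61 and 7.53 in cortex-derived progenitor cells, 8.11 and 8.28 in medulla-derived ones, 9.42 and 9.73 in cortex-derived organoids and 11.31 and 10.80 in medulla-derived ones. Fzd4, the Frizzled of retinal and other vessels, fell by 2.52 ± 0.16 in progenitor cells (limma adjusted p = 3.69e-08). All 12 endothelial markers fell there too, where 35.9% of all genes fell, and their part in the Fzd4 fall was not tested. In organoids Fzd4 rose by 2.43 ± 0.16. Over that step 6 of the 12 endothelial markers fell and none rose (list median -0.64), where 44.3% of all genes fell and 28.1% rose. Their mean per array went from 5.26 to 5.80 in progenitor cells to 4.74 to 5.20 in organoids. Their part in the Fzd4 rise was not tested. All 3 bright Fzd4 probe sets fell and rose in this order, but against tissue the organoid values differed in sign, at -0.08 ± 0.16, -1.57 ± 0.22 and 2.17 ± 0.27.

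For Fzd6, tissue stood at 9.27, 9.35, 9.83 and 9.36, progenitor cells at 10.71, 11.04, 10.84 and 10.94, and organoids at 11.38, 11.43, 10.83 and 11.20. Fzd6, a receptor of planar polarity, rose by 1.43 ± 0.13 in progenitor cells (limma adjusted p = 8.07e-07) and was 1.76 ± 0.13 above tissue in organoids, with no overlap with tissue in either. A dim probe set of Fzd6, below the brightness filter, gave -1.28 ± 0.27 for organoids against tissue. The further 0.33 ± 0.13 into organoids was lost on leaving out any of 8 arrays (0.23 to 0.35, adjusted p of 0.0529 to 0.163), the exceptions being the medulla tissue arrays, cortex progenitor 2 and medulla organoid 1. Fzd1 gave 11.34, 11.11, 11.11 and 11.01 in the tissue arrays, 10.94, 10.80, 10.75 and 10.89 in the progenitor arrays, and 8.88, 8.94, 9.81 and 9.23 in the organoid arrays. Fzd1 did not pass between tissue and progenitor cells (-0.30 ± 0.13, adjusted p = 0.055) and fell by 1.63 ± 0.13 in organoids. A second, dimmer probe set of Fzd1 gave 0.54 ± 0.22 for organoids against tissue, opposite to the -1.93 ± 0.13 of the first.

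Fzd2, Fzd3, Fzd7 and Fzd10 also fell from progenitor cells to organoids. Fzd10 read 6.40 to 7.31 in tissue, 6.34 to 6.56 in progenitor cells and 4.03 to 4.34 in organoids, a fall of 2.24 ± 0.27 (limma adjusted p = 1.06e-05) with no overlap. The opposite-strand Fzd10os fell by 1.58 ± 0.25 over the same step. How far the 2 probe sets read overlapping transcripts was not tested. A second Fzd10 probe set, below the brightness filter, read 4.13 to 4.82 in progenitor cells and 5.03, 5.61, 6.66 and 5.89 in organoids, a difference of 1.40 ± 0.30 (adjusted p = 0.00123), so the direction of Fzd10 depends on the probe set. Fzd2 fell by 1.22 ± 0.24 on the probe set with the highest mean, and its other 2 gave -3.88 ± 0.31 and -3.50 ± 0.24. Those 2 had risen from tissue to progenitor cells by 2.58 ± 0.31 and 1.11 ± 0.24, while the first gave 0.08 ± 0.24. Fzd3 fell by 1.50 ± 0.28, though its 2 other bright probe sets gave -0.28 ± 0.40 and 0.11 ± 0.41 and did not pass, and 3 dim ones gave 2.53 ± 0.36, 1.40 ± 0.34 and 0.54 ± 0.42. The tissue arrays of Fzd7 read 10.15, 10.11, 9.47 and 9.88, the progenitor arrays 9.09, 9.08, 9.37 and 9.33, and the organoid arrays 8.43, 8.14, 7.60 and 8.52. Fzd7, whose promoter is shown above, fell by 0.68 ± 0.19 and then by 1.04 ± 0.19. Fzd5 rose by 0.42 ± 0.14 in progenitor cells, a call lost without cortex tissue 2 (0.34, adjusted p = 0.0725) or medulla progenitor 1 (0.33, adjusted p = 0.082), and its other probe set fell by 1.64 ± 0.28 in organoids where the first gave 0.21 ± 0.14. Fzd8 lay between 7.21 and 8.80 on all arrays and passed in none of the 3 comparisons, though a dimmer probe set fell by 0.79 ± 0.25 in progenitor cells.

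**Figure D4:**
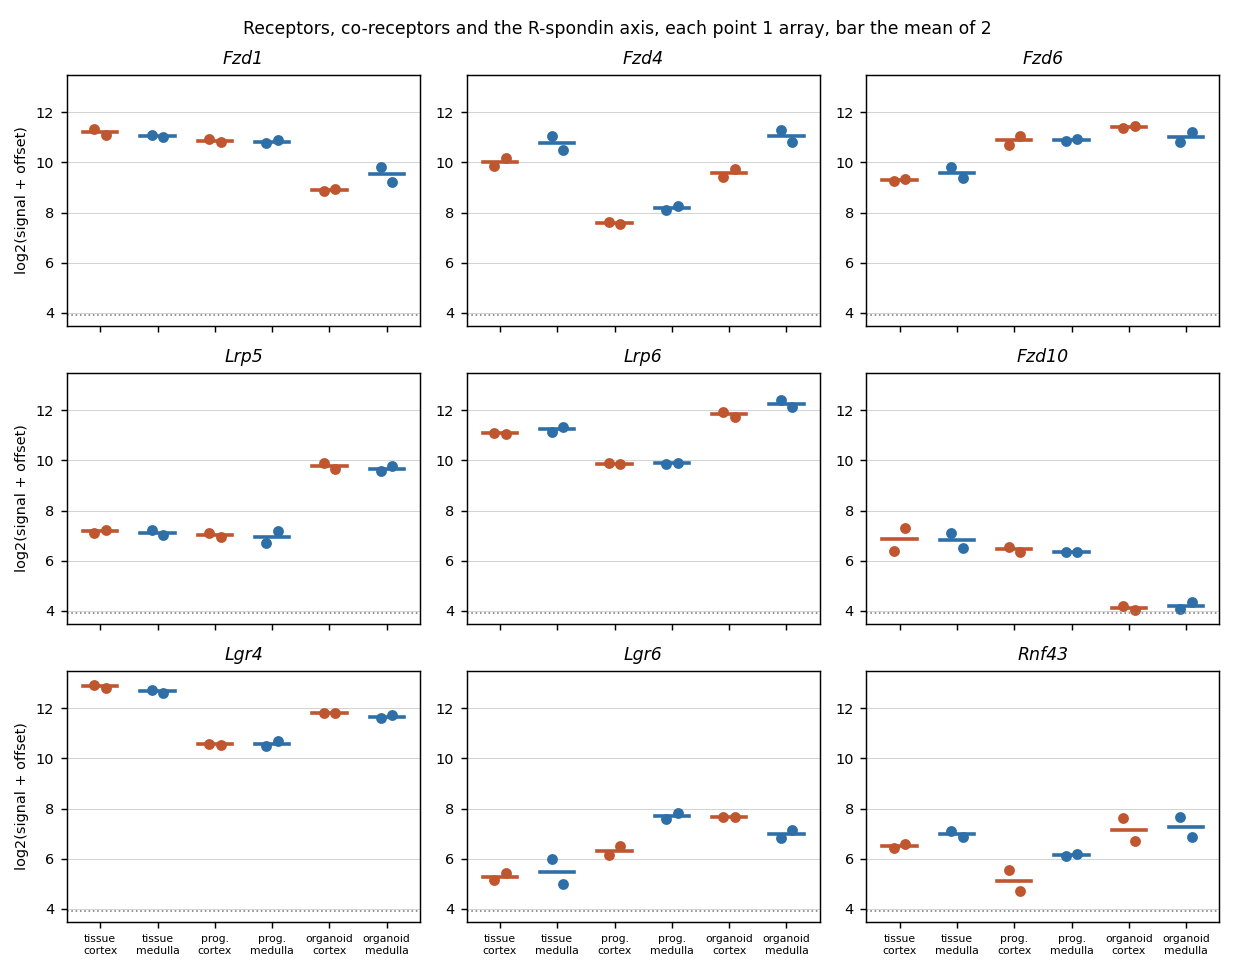
Receptors, co-receptors and genes of the R-spondin axis by group, each point 1 array and each bar the mean of 2, in log2(signal + offset). Lrp5 is near 7 in tissue and progenitor cells and between 9.57 and 9.90 in organoids, Lrp6, Fzd4 and Lgr4 dip in progenitor cells, and Fzd10, on the brighter of its probe sets, falls to 4.03 to 4.34 in organoids.

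In the R-spondin axis the receptors moved in different directions. Lgr4 read 12.94 and 12.82 in cortex tissue, 12.73 and 12.63 in medulla tissue, 10.59 and 10.55 in cortex-derived progenitor cells, 10.50 and 10.69 in medulla-derived ones, 11.82 and 11.80 in cortex-derived organoids and 11.62 and 11.72 in medulla-derived ones. Lgr4, the R-spondin receptor needed for normal kidney size, fell by 2.20 ± 0.08 in progenitor cells (4.60-fold, limma adjusted p = 2.52e-10) and recovered by 1.16 ± 0.08 in organoids, with the 3 stages fully separated. A second, dimmer Lgr4 probe set, which also passed the brightness filter, rose by 1.41 ± 0.32 in organoids. It was 0.98 ± 0.32 above tissue there, against -1.04 ± 0.08 on the first, so the direction against tissue depends on the probe set. For Lgr6, tissue stood at 5.14, 5.43, 5.99 and 4.99, progenitor cells at 6.15, 6.49, 7.60 and 7.84, and organoids at 7.68, 7.65, 6.84 and 7.17. Lgr6 rose by 1.64 ± 0.26 in progenitor cells (adjusted p = 0.0001), with every progenitor array above every tissue array. A second Lgr6 probe set gave 0.57 ± 0.28 (adjusted p = 0.0877) and 0.05 ± 0.28 for organoids against tissue, where the first gave 1.94 ± 0.26.

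Lgr5 gave 6.50, 6.57, 7.19 and 7.09 in the tissue arrays, 5.12, 5.26, 5.91 and 5.44 in the progenitor arrays, and 6.08, 5.05, 4.004 and 7.03 in the organoid arrays. Lgr5, a stem cell marker of several epithelia and itself a Wnt target, fell by 1.41 ± 0.51 in progenitor cells (limma adjusted p = 0.0268). This call was lost on leaving out any of 7 of the 8 arrays compared, all but medulla progenitor 1, with values of -1.44 to -1.29 and adjusted p of 0.0528 to 0.0793. In organoids Lgr5 spread from 4.004 to 7.03, the whole range lying within the medulla pair. The call of -1.30 ± 0.51 against tissue was likewise lost without any 1 of the 4 tissue arrays, cortex organoid 2 or medulla organoid 1 (-1.32 to -0.54, adjusted p of 0.0706 to 0.133).

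The tissue arrays of Rnf43 read 6.43, 6.58, 7.12 and 6.88, the progenitor arrays 5.55, 4.70, 6.10 and 6.20, and the organoid arrays 7.62, 6.69, 7.65 and 6.87. Rnf43, a ligase that removes Frizzled and is itself a Wnt target, fell by 1.11 ± 0.29 in progenitor cells and rose by 1.57 ± 0.29 in organoids (limma adjusted p = 0.000419). Organoids and tissue overlapped (0.46 ± 0.29, adjusted p = 0.168). Its partner Znrf3 read 9.65 to 10.29 in tissue, 9.57 to 9.82 in progenitor cells and 8.36 to 8.56 in organoids, a change of -1.27 ± 0.14 in the last step. Another Znrf3 probe set, at 4.54 to 6.63 before organoids and 7.36 to 8.24 in them, rose by 2.00 ± 0.48, so the direction of Znrf3 in organoids depends on the probe set.

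Among the intracellular genes, the mean change from tissue to progenitor cells was below 0 for Axin2, Lef1, Nkd2, Tcf7l1 and Tcf7l2 and above 0 for Axin1. Of the 6 tested, 2 passed (33.3%), where 72.7% of all genes did, and 6 genes are too few to compare these shares. For Axin2, tissue stood at 6.73, 6.64, 7.37 and 6.57, progenitor cells at 5.99, 5.78, 6.06 and 5.73, and organoids at 4.74, 5.61, 4.13 and 5.81. Axin2, a scaffold of the destruction complex and the most general feedback target of beta-catenin, fell by 0.94 ± 0.37 in progenitor cells (limma adjusted p = 0.0359) and was 1.76 ± 0.37 below tissue in organoids (adjusted p = 0.000823). The first of these calls was lost on leaving out any of 7 of the 8 arrays, all but medulla tissue 2 (-1.02 to -0.74, adjusted p of 0.0544 to 0.13). Lef1 gave 6.38, 7.04, 7.14 and 6.69 in the tissue arrays, 5.84, 6.16, 6.37 and 5.89 in the progenitor arrays, and 5.74, 5.06, 7.59 and 6.27 in the organoid arrays. Lef1, a nuclear partner and target of beta-catenin, passed in none of the 3 stage comparisons (-0.75 ± 0.33, adjusted p = 0.0559, in progenitor cells against tissue), and the medulla organoids were spread over its whole tissue range.

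The tissue arrays of Tcf7l1 read 8.03, 8.06, 9.15 and 8.88, the progenitor arrays 7.10, 7.53, 6.17 and 8.01, and the organoid arrays 7.01, 6.32, 6.34 and 5.82. Tcf7l1, mostly a repressor, fell by 1.33 ± 0.35 in progenitor cells and was 2.16 ± 0.35 below tissue in organoids (limma adjusted p = 0.000117), with every organoid array below every tissue array. The difference between progenitor cells and tissue was -1.93 ± 0.50 in medulla samples and -0.73 ± 0.50 in cortex samples (adjusted p = 0.221). Its second probe set gave -0.39 ± 0.27 there and -1.84 ± 0.27 in organoids against tissue. For Tcf7l2, tissue stood at 8.65, 8.90, 9.71 and 8.87, progenitor cells at 9.09, 9.15, 9.02 and 8.74, and organoids at 11.04, 11.07, 10.73 and 11.36. Tcf7l2, the main Tcf factor of many epithelia, did not pass between tissue and progenitor cells (-0.03 ± 0.19, adjusted p = 0.891) and rose by 2.05 ± 0.19 in organoids. Its 3 other bright probe sets gave 4.04 ± 0.26, 0.99 ± 0.41 and -1.99 ± 0.39 over the same step, the last a called fall. In the same order they read 5.65 to 6.34, 6.87 to 7.96 and 9.18 to 10.09 in tissue. In progenitor cells they read 5.24 to 5.91, 6.12 to 7.01 and 8.32 to 8.95, and only the last set had no overlap. Nkd2, which binds Dishevelled, rose by 1.70 ± 0.34 in organoids on 1 of its 4 probe sets. Its excess of 1.01 ± 0.34 over tissue was lost without cortex tissue 1, cortex organoid 2 or medulla organoid 2 (0.74 to 0.81, adjusted p of 0.0582 to 0.0764). The other Nkd2 probe sets, all below the brightness filter, read 4.29 to 5.23, 4.54 to 5.31 and 4.30 to 5.79 in progenitor cells. In the same order they read 4.22 to 5.22, 4.24 to 5.62 and 4.375 to 5.06 in organoids. In tissue they read 5.14 to 6.08, 4.34 to 5.89 and 4.73 to 5.79, so the rise of Nkd2 rests on 1 probe set. Axin1 passed in no stage comparison, but its second probe set rose by 1.45 ± 0.21 in organoids.

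Some members passed a stage comparison only after 1 array was left out. Between tissue and progenitor cells these were Lef1 (without cortex tissue 1 or either medulla organoid array), Fzd1 and Fzd8 (without either medulla organoid array), Axin1 (without any 1 organoid array), and Fzd10 and Nkd2 (without cortex tissue 1). From progenitor cells to organoids, Dkk2, Sfrp2 (1.45), Lgr5 (0.87) and Fzd8 (0.62) passed as rises without medulla organoid 1, and so did Sfrp1 without medulla organoid 2 (0.39). Axin2 passed as a fall without cortex organoid 2 (-1.03) or medulla organoid 2 (-1.24), and Tcf7l1 without medulla progenitor 1 (-1.29), medulla organoid 1 (-0.96) or cortex organoid 1. Between tissue and organoids, Lef1 passed without medulla organoid 1 (-0.98), Fzd8 without medulla organoid 2 (-0.59), Axin1 without cortex organoid 2 (0.37), and Wnt16 without cortex tissue 1 (1.17), medulla tissue 2 (1.13) or medulla organoid 1 (1.24).

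**Figure D5:**
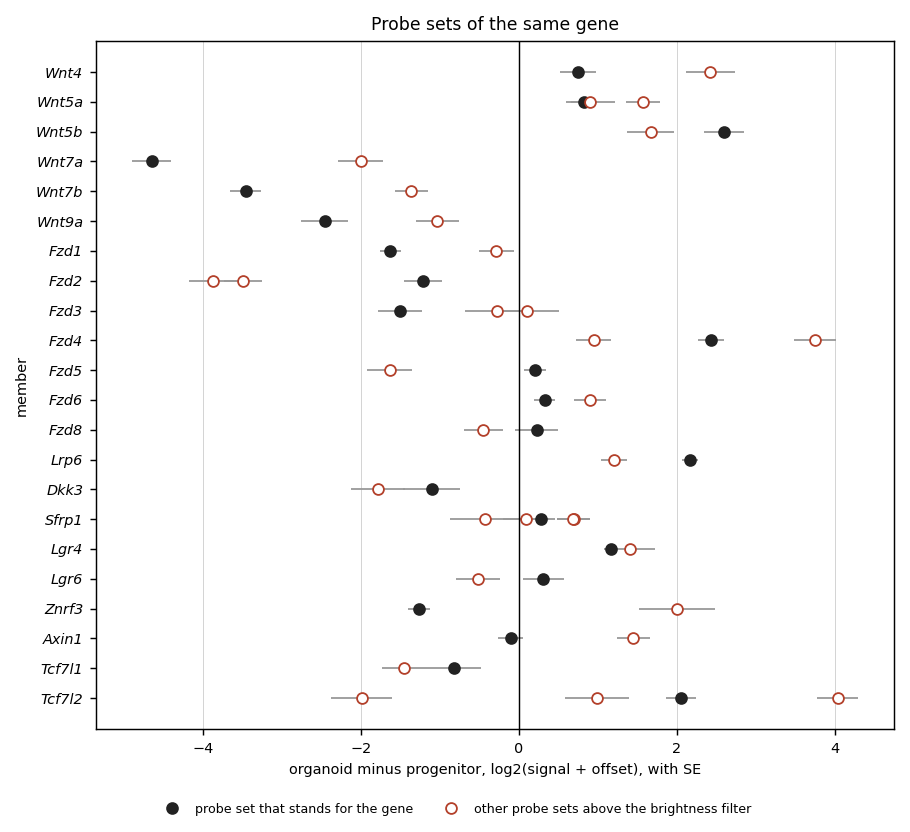
Organoid minus progenitor difference in log2(signal + offset), with its standard error, for members with more than 1 bright probe set. Filled points are the probe set that stands for the gene and open points the others. Sets of Znrf3, Tcf7l2, Axin1, Fzd3, Fzd5, Fzd8, Lgr6 and Sfrp1 lie on both sides of 0, while those of Wnt7b, Wnt9a, Wnt5b, Fzd4 and Lrp6 lie on 1 side.

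Cortex and medulla differed in few members outside the organoids. In tissue, 1 of 39 members passed (0.338% of all genes), Wnt7b, higher in medulla by 1.60 ± 0.27 (limma adjusted p = 0.0332), with 6.97 and 7.38 in cortex against 8.26 and 9.28 in medulla. The call was lost on leaving out any of 9 arrays, all but medulla tissue 2 and the medulla organoid pair (1.09 to 1.80, adjusted p of 0.089 to 0.181). A second Wnt7b probe set gave 0.43 ± 0.30. Wnt11, at 1.80 ± 0.41 higher in medulla, did not pass (adjusted p = 0.113), though its medulla arrays were both above its cortex arrays and it passed without medulla organoid 1 (adjusted p = 0.0284) or medulla organoid 2 (adjusted p = 0.0265). Wnt5a, at 0.86 ± 0.24, passed without medulla tissue 2 (1.25, adjusted p = 0.0195). In progenitor cells limma called 0 members (0.314% of all genes), 5 had an unadjusted p under 0.05, and the smallest adjusted p was 0.235, for Lgr6. Dkk2 was 2.24 ± 0.63 higher in medulla-derived progenitor cells (adjusted p = 0.316), and it passed without medulla organoid 1 (adjusted p = 0.00241) or medulla organoid 2 (adjusted p = 0.0029).

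In organoids 6 of 39 members differed by region, 3 higher and 3 lower in medulla, where 18% of all genes did (7.94% higher and 10% lower). Sfrp1 was 2.64 ± 0.26 lower in medulla organoids (limma adjusted p = 0.000114), and 3 of its 4 other bright probe sets passed in the same direction (-3.66 ± 0.30, -2.61 ± 0.41 and -1.98 ± 0.30). Wnt5b was 2.97 ± 0.35 lower in medulla organoids (adjusted p = 0.000365), but its second probe set gave -0.19 ± 0.42 (adjusted p = 0.818). Fzd4 was 1.48 ± 0.23 higher (adjusted p = 0.00172), with its other sets at 1.05 ± 0.31 and 0.76 ± 0.38. These 3 calls held on leaving out each array. Beside them, 14 of 18 fibroblast and mesenchyme markers were higher in medulla organoids and none was lower, and their part in the differences was not tested.

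The other 3 region calls in organoids were Lef1 (1.53 ± 0.46 higher in medulla), Fzd1 (0.61 ± 0.18 higher) and Wnt7a (1.23 ± 0.34 lower). Lef1 lost its call on leaving out any array but medulla organoid 2 (0.88 to 1.87, limma adjusted p of 0.0506 to 0.231). Fzd1 lost it for 9 arrays, all but the medulla tissue pair and medulla organoid 2 (0.32 to 0.65, adjusted p of 0.0521 to 0.15). Wnt7a lost it without any progenitor array, cortex organoid 2 or medulla organoid 2 (-1.23 to -0.73, adjusted p of 0.0507 to 0.211). Without medulla organoid 2 the number of members called was 13, 5 higher and 8 lower in medulla. It then gained Dkk2, Sfrp2, Lgr5, Lrp6, Wnt6, Fzd6, Fzd7 and Fzd8. Without medulla organoid 1 it was 6, with Fzd3 and Lgr5 gained and Lef1 and Fzd1 lost. Wnt7b (0.69 higher in medulla) passed without either medulla tissue array. Dkk2 gave -1.53 ± 0.63 (adjusted p = 0.118) with both and -2.85 without medulla organoid 2 (adjusted p = 0.000209). Lgr5 gave 1.46 without medulla organoid 1 (adjusted p = 0.0342) and -1.56 without medulla organoid 2 (adjusted p = 0.0218), so its direction rests on which array is kept.

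The region difference itself changed between progenitor cells and organoids for 4 members (4.1% of all genes, 2.48% downward): Wnt5b by -3.43 ± 0.50, Sfrp1 by -2.58 ± 0.36, Dkk2 by -3.76 ± 0.89 and Lgr6 by -2.06 ± 0.51, with limma adjusted p of 0.00464, 0.00406, 0.0386 and 0.047. Those of Wnt5b and Sfrp1 held on leaving out each array. Without medulla organoid 2 the count was 11, with Fzd1, Fzd4, Fzd7, Fzd8, Lef1, Lgr5 and Lrp6 gained, and Wnt7a passed without medulla organoid 1 (-1.61, adjusted p = 0.0497). Between tissue and progenitor cells limma called 0 members (0.284% of all genes), 7 had an unadjusted p under 0.05 and the smallest adjusted p was 0.22, for Wnt5a. Omission of single arrays raised that count for Dkk2 (2.49, adjusted p = 0.0137 without medulla organoid 1 and 0.0169 without medulla organoid 2), and for Wnt5a (-1.73, adjusted p = 0.0183) and Wnt7b (-1.98, adjusted p = 0.00806) without medulla tissue 2.

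Other genes of the pathway were followed as fixed lists. Of 44 tested genes of the shared machinery, 21 rose and 14 fell from tissue to progenitor cells (list median 0.36 against 0.03 over all genes), and 14 rose and 23 fell from there to organoids (-0.43 against -0.29). The shares called, 79.5% and 84.1%, lie near the 72.7% and 72.3% of all genes. Porcn, the acyltransferase that every Wnt ligand needs for secretion, rose by 1.96 ± 0.13 in progenitor cells, and Wls, the carrier of acylated Wnt proteins, fell by 0.41 ± 0.10 there and by 2.01 ± 0.10 in organoids. Ptk7, a polarity co-receptor, rose by 3.23 ± 0.23 and then fell by 2.40 ± 0.23. The 4 tested extracellular and membrane-bound modulators outside the rule fell in progenitor cells, with changes of -6.10 ± 0.18 for Sostdc1, -3.79 ± 0.41 for Frzb, -3.02 ± 0.25 for Notum and -1.40 ± 0.28 for Apcdd1. Apcdd1 is a membrane-bound inhibitor, and the other 3 are secreted. From progenitor cells to organoids Sostdc1 rose by 4.32 ± 0.18 and Apcdd1 by 2.65 ± 0.28, Notum fell by 1.33 ± 0.25, and Frzb did not pass (0.09 ± 0.41, limma adjusted p = 0.847).

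Beta-catenin target genes known from several tissues did not move as 1 group. Of 8 tested, 4 rose in progenitor cells (Cd44 5.70 ± 0.10, Myc 3.30 ± 0.14, Ccnd1 1.71 ± 0.12 and Ephb3 0.68 ± 0.26) and 3 fell (Notum, Apcdd1 and Sp5, the last by 0.57 ± 0.18), where 36.8% of all genes rose and 35.9% fell. With 7 of 8 called, the list holds too few genes to be set against the 72.7% of all genes. The first 4 fell from progenitor cells to organoids, by 2.42 ± 0.10, 1.32 ± 0.14, 1.48 ± 0.12 and 1.57 ± 0.26. Over that step 5 of the 8 fell, Notum among them, and 2 rose, Apcdd1 as given above and Ascl2 by 1.53 ± 0.36, where 44.3% of all genes fell and 28.1% rose. Notum and Apcdd1 also stand in the list of modulators. The values of Axin2, Lgr5, Rnf43 and Lef1 in progenitor cells are those given above, each below tissue in the mean, with 3 of the 4 called. Of these calls, those of Axin2 and Lgr5 did not hold on leaving out single arrays.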

How the data were processed

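The deposited values are log2 signals per probe set from MAS5, per the submitters' processing notes, with no version given in the sources used here. From the values, each array was scaled to a trimmed mean signal of 500. Depth has no meaning for arrays; their number limits the precision. Scanner files and detection calls were not used here.

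Of 45101 probe sets, 34945 have 1 gene symbol in the platform annotation, 932 several and 9211 none. Signals were unlogged, the 25th percentile of all values (15.1) was added, and log2 taken, which understates changes of dim genes. The probe set with the highest mean stood for its gene. Group means were fitted with limma 3.58.1 in R 4.3.3 (trended empirical Bayes, two-sided, Benjamini-Hochberg over 13037 genes), and all probe sets of the members were tested the same way together with all other bright probe sets. The procedure was tested on simulated data. The labels do not show that replicates came from separate animals, so p-values measure the spread between these arrays.

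The members and lists were chosen with earlier results of these data known. Named members are, per comparison, up to 10 rises and 10 falls of at least 2-fold without overlap of arrays, and a fixed set of members followed throughout. Axin1, Fzd2, Fzd3, Fzd5, Fzd7, Fzd8, Nkd2 and Wnt16 fall outside it and were given values after these were seen. Alternatives were another normalization, offset, filter, probe set rule, fit, variance model, replicate block and the omission of each array. Scaling to a common median, each region's arrays alone and crossed replicate numbers were added after seeing the data.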

Additional observations from a re-analysis of the deposited data

Results flagged for a closer look

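In 4 members the difference between medulla and cortex changed from progenitor cells to organoids, by a test of that change itself in the limma fit. In Wnt5b the change was -3.43 on the log2 scale: medulla minus cortex was 0.46 in progenitor cells and -2.97 ± 0.35 in organoids, on a probe set whose partner gave a change of -0.96 ± 0.59 (adjusted p = 0.444). In Sfrp1 it was -2.58, from -0.06 in progenitor cells to -2.64 ± 0.26 in organoids, and its 4 other bright probe sets gave changes of -3.76, -3.01, -1.40 and -0.54. In Dkk2 it was -3.76, from 2.24 ± 0.63 to -1.53 ± 0.63, and the adjusted p of 0.0386 rose to 0.0567 to 0.144 on leaving out any of 10 arrays, all but the medulla organoid pair. In Lgr6 it was -2.06, from 1.40 to -0.66 (adjusted p = 0.047), and the call was lost on leaving out any of 8 arrays, all but the medulla tissue and medulla organoid pairs (-2.23 to -1.89, adjusted p of 0.0739 to 0.184). Its second probe set gave a change of -1.96 ± 0.56 (adjusted p = 0.0894). The 2 medulla organoid arrays differ by 2.64 in Dkk2.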

How the results depend on the processing

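The stage counts were 24 to 31 (progenitor against tissue), 24 to 31 (organoid against progenitor) and 28 to 31 (organoid against tissue) over the omissions of single arrays. Medulla arrays alone gave 17 changes between progenitor cells and tissue, with 2 arrays a side, and a filter on mean brightness gave 20 between organoids and tissue, with 27 members tested. For medulla against cortex in tissue the count was 2 with the offset at the median and 0 with the mean of all probe sets, with a fit of the compared groups alone and without the variance trend, and 0 to 2 over the omissions. In progenitor cells it was 2 with the compared groups alone and 0 to 1 over the omissions, and in organoids 3 and 3 to 13. For the change of the region difference, it was 1 with the compared groups alone and 0 to 2 over the omissions from tissue to progenitor cells, and 2 with no brightness filter and 2 to 11 over the omissions from progenitor cells to organoids. Other settings kept these counts within 1.5 times.

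Signs turned in these cases. With the mean of all probe sets, Znrf3 gave 0.37 in organoids against progenitor cells and 0.35 against tissue, and Wnt7a gave -0.24 against tissue. Sfrp1 from progenitor cells to organoids was -1.01 in medulla arrays alone. Lgr5, medulla against cortex organoids, was 1.46 and -1.57 (log2) without medulla organoid 1 and 2. The cause was not tested beyond the probe sets and arrays named.

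The replicate number as a block gave counts of 27, 26 and 30 for the stages, 1, 0 and 6 for the regions and 0 and 3 for the changes of region difference. Arrays of the same replicate number showed little shared deviation, with correlations between -0.14 and 0.06. Whether equal numbers share an animal or culture cannot be told from this, since spread between arrays can hide it. With the numbers crossed (tissue at -0.138, progenitor cells at -0.111), the tissue region count was 0. Scaling moved the median of all genes by up to 0.18 (common median) and -0.22 (common 75th percentile) between organoids and tissue. With 2 arrays a group, many differences could not be resolved, and some that were not called were larger than others that were. Values near 3.92 carry little signal.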
